A study of Mus musculus with 4 samples.

Results

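The genes described here are the WNT ligands, receptors, inhibitors and effectors of mouse hair follicle stem cells (HF-SCs). They were chosen by name. Every gene called *Wnt*, *Fzd*, *Sfrp* or *Dkk* followed by a number was taken, together with *Axin1*, *Axin2*, *Lef1*, *Tcf7*, *Tcf7l1*, *Tcf7l2*, *Lrp5*, *Lrp6*, *Wif1*, *Porcn*, *Wls*, *Notum*, *Nkd1*, *Nkd2*, *Rnf43* and *Znrf3*. Of 53 such names in the table, 47 had a mean normalized count above 0, out of 17044 genes with a mean above 0. The other 6, *Wnt2*, *Wnt8a*, *Wnt8b*, *Wnt9b*, *Dkk1* and *Dkk4*, had 0 reads in every library, which allows up to 3 reads of each over the 4 libraries by counting error alone.

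WNT ligands are secreted lipid-modified proteins that bind a frizzled receptor together with the co-receptor LRP5 or LRP6. In the canonical branch the bound receptors stop the AXIN and APC complex from marking β-catenin for degradation, and β-catenin then enters the nucleus and binds the TCF/LEF factors on its target genes. In the hair follicle this signal is known for starting a new growth phase, anagen, and bulge stem cells in the resting phase, telogen, are known to make secreted WNT inhibitors.

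The study examined bulk RNA of HF-SCs sorted from back skin of C57BL/6 mice at postnatal day 44, with 2 control and 2 *miR-205*-induced samples. Induced mice carry *pTRE2-miR-205* and a *Krt14* promoter that drives the reverse tetracycline trans-activator, so doxycycline switches the miRNA on in keratin 14 cells, and they had eaten doxycycline chow for 2 d, from day 42. According to the study's methods, control mice were matched for sex and littermates served as controls throughout. All mice carried a *Krt14-H2b-GFP* allele for sorting. The labels call the controls untreated, while the methods have both groups on doxycycline, and whether control mice carried *pTRE2-miR-205* or the trans-activator is not given in the sources used. Whether each sample came from 1 mouse is not stated.

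The deposited table gives 1 mean normalized count per gene over all 4 libraries, beside columns of the authors' own comparison that were not used. That mean was written with 15 digits, so it could be taken apart into whole reads. Genes with a single read in a single library share 1 of 4 means, and these 4 values give the size factor of each library, its depth relative to the others. With the size factors known, only 1 set of 4 whole read counts gave the mean of 7888 of 7889 genes with a mean over 50 and up to 1000. Reads were recovered in this way for 40 of the 47 WNT genes. Of these, *Fzd1*, *Fzd3*, *Fzd5* and *Axin1* had means over 1000. Between means of 1000 and 2000 only 47.0% of genes had 1 set, and the result depends more on the tolerance chosen. In simulated data the 115 single sets found in this range were right. The means of *Dkk3*, *Sfrp1*, *Fzd7*, *Fzd2*, *Lrp5*, *Lrp6* and *Wls*, all over 1000, could not be taken apart, and for these only the authors' mean is given.

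The 4 libraries are called A, B, C and D, from the deepest to the shallowest, with size factors of 1.24, 1.18, 0.966 and 0.716. Genes with recovered reads, 15198 in all, held between 2442406 and 4302495 reads a library and 26.1% of the summed mean. The recovered reads carry no sample label. Control and induced libraries cannot be told apart in them, so no value below compares control with induced samples. All values describe resting-phase HF-SC libraries of both groups together, and intervals cover counting error only.

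All 10 markers on the list of bulge stem cells had a mean over 50, with means of 119883 for *Krt15* and 14575 for *Cd34*. The sort itself selected cells high in CD34, integrin α6 and *Krt14*-driven H2b-GFP, so *Cd34*, *Itga6* and *Krt14* are no independent check. The study used *Krt5* and *Krt14* to mark epithelial cells at large. A mean of 50 or less was found for 6702 of all 17044 genes with a mean above 0. Genes of other skin cell types were present as well. A mean over 50 was found for 5 of 6 fibroblast, 3 of 4 melanocyte, 3 of 4 myeloid, 3 of 4 sebaceous, 4 of 4 suprabasal and 0 of 3 endothelial markers, all of which were above 0. *Krt10* had a mean of 7246, *Col1a1* 5186 and *Cd74* 2744. *Ly6a*, which encodes the Sca1 protein that the sort selected against, had a mean of 136. Over the markers with recovered reads, the summed normalized count of each of these lists of other cell types was lowest in library D, except for the myeloid list, where A was lower. Of the bulge markers only *Fgf18* had recovered reads, and its normalized count was lowest in B. In bulk RNA, fewer cells of a type and less RNA per cell cannot be told apart.

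**Figure D1:**
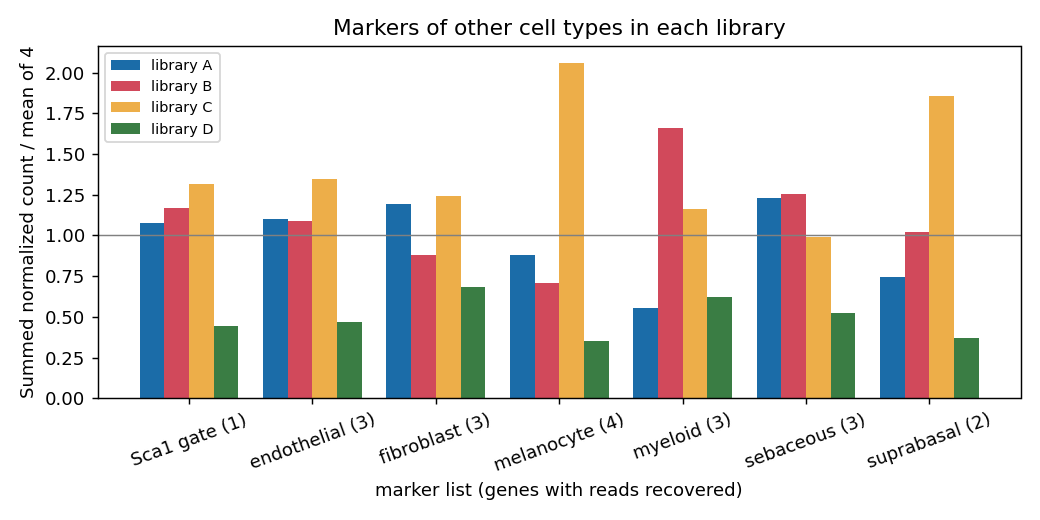
Summed normalized count of the markers of other cell types in each library, divided by the mean of the 4 libraries, for genes with recovered reads, whose number stands in parentheses. Library D is lowest in all lists but the myeloid one, C is highest in the melanocyte and suprabasal lists, and B in the myeloid list.

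Sequences are shown for the members that carry letters bearing on the induced miRNA or on the TCF/LEF factors. The first is mature *miR-205-5p*, which lies on GRCm38.p6 at chr1:193507503-193507524 on the minus strand, with its seed, bases 2 to 8, in capitals. The other 4 are the places in the 3′UTR of the longest GENCODE vM1 transcript of a member that hold ATGAAGG, the letters that pair with the seed, in capitals.
miR-205-5p: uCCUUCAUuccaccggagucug
Sfrp1: agggtctgcttttgtATGAAGGaggtacgt
Nkd1: tacctagctccatacATGAAGGgtgaagat
Rnf43: aagagggggaatgggATGAAGGcagaggag
Wnt5b: acaggtggggattagATGAAGGaactggac
Such letters were found in 4 of 47 members, or 8.51%, against 10.9% of 14374 genes. They start at base 760 of the 3′UTR in *Sfrp1*, 1315 in *Nkd1*, 865 in *Rnf43* and 305 in *Wnt5b*. A match is a description of the sequence and not evidence of binding. The study's capture of *miR-205*-bound mRNAs, as listed for cytoskeleton and adhesion genes, named *Lrp6*. The 3′UTR of the longest *Lrp6* transcript did not hold these letters.

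The letters CTTTGA, the core that TCF/LEF factors recognise, were searched on both strands (TCAAAG on the other) in RefSeq promoters of GRCm38.p6, which cover 250 bases before to 50 after an annotated start. Of 31 members with such a promoter, 4 held them, or 12.9%, against 14.8% of 12514 genes. The match is in capitals in each window, and all windows are read on the strand of the gene.
Wnt11, chr7:98835050-98835079, plus strand: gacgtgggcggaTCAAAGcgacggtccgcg
Wnt5b, chr6:119449440-119449469, minus strand: gagtaagtctctCTTTGAtctgctccctgt
Fzd1, chr5:4758441-4758466, minus strand: cgcagcacTCAAAGtagcagtctgtg
Lef1, chr3:131156102-131156131, plus strand: taaaatacatggTCAAAGgaaaataggtat
Lef1, chr3:131156162-131156191, plus strand: cattgtctgttcTCAAAGtcaggtcttgca
*Lef1* held 2 matches, 180 and 120 bases before a start that lies within the gene. The *Wnt5b* match, 71 bases before its start, also belongs to a start that lies within the gene.

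**Figure D2:**
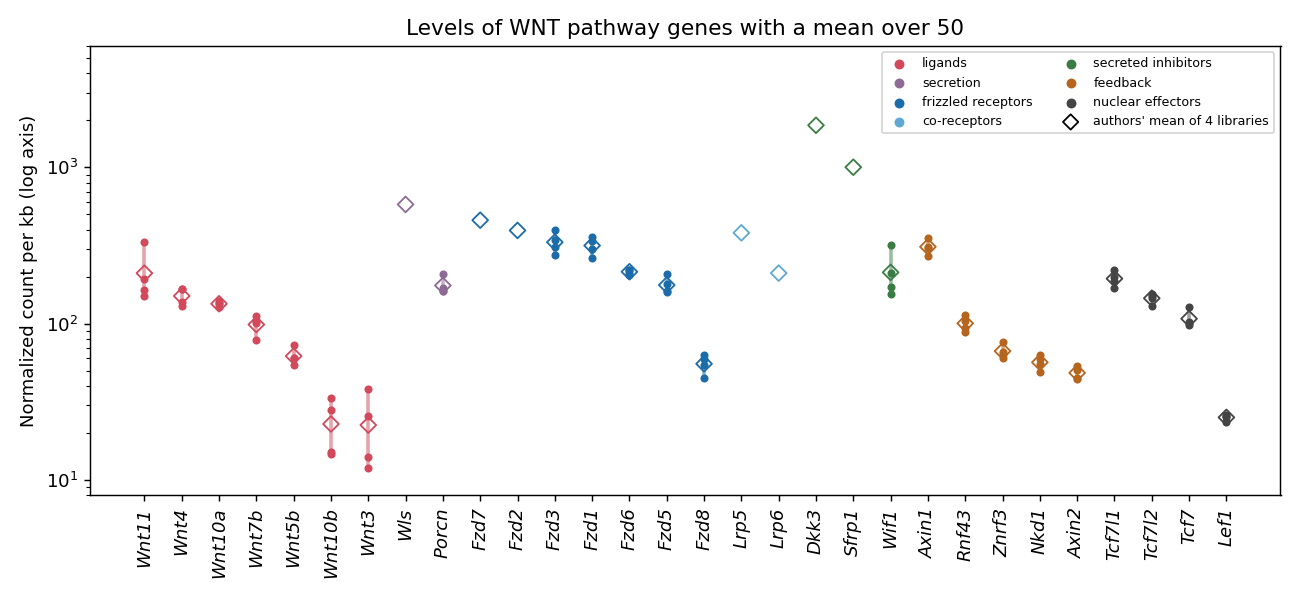
Levels of the 30 WNT genes with a mean normalized count over 50, grouped and coloured by role, as normalized count per kilobase of the longest transcript on a log axis. Dots are the 4 libraries where reads were recovered, and open diamonds are the authors' mean of 4 libraries. *Dkk3* and *Sfrp1* lie highest, at 1862 and 1003, and *Lef1*, *Wnt10b* and *Wnt3* lie lowest, at 25.1, 22.8 and 22.4.

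The group of secreted inhibitors made up the largest share of the summed level. *Sfrp* and *Dkk* genes, *Dkk3* included, were placed in it by name, and whether each inhibits WNT signalling in these cells was not tested. As normalized counts per kilobase of the longest transcript, the 8 inhibitors held 37.8% of the sum over all 47 genes, the 10 frizzled receptors 24%, the secretion genes 9.16%, the 15 ligands 9.0%, the co-receptors 7.18%, the feedback genes 7.11% and the TCF/LEF factors 5.72%. The inhibitor share rested on *Dkk3* and *Sfrp1*. *Dkk3* alone held 59.7% of the inhibitor sum. Without it the frizzled receptors would hold the largest share with this length. With coding length, where *Sfrp1* was at 4642, the inhibitors would still hold the largest share without *Dkk3*. *Dkk3*, a divergent member of the Dickkopf family that is known as a bulge gene, had a mean normalized count of 6249 and a level of 1862 per kilobase, the highest of the 47. *Sfrp1*, a frizzled-related protein that binds WNT ligands outside the cell, had a mean of 4386 and a level of 1003 per kilobase. These means lie at percentiles 98.2 and 97.2 of all genes with a mean above 0. *Dkk3* (gene 50781) lies on chromosome 7 from 112116019 to 112159482 and *Sfrp1* (gene 20377) on chromosome 8 from 23411383 to 23449632, on GRCm38.p6, the build named mm10 in the labels.

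*Wif1*, which binds WNT ligands directly, was the third inhibitor with a mean over 50, and it was uneven across libraries. Libraries A, B, C and D held 485, 566, 342 and 520 reads of it, or normalized counts of 392, 480, 354 and 726. Library D was the highest, 2.05 times library C, and its exact 95% Poisson interval of 665 to 791 lay above that of every other library. Without library D the highest was 1.36 times the lowest.

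The other inhibitors had means of 50 or less, where counting error is wide. Members at such means are named here after their values were seen. *Notum*, an enzyme that takes the lipid off WNT ligands, had 48, 63, 62 and 19 reads in A, B, C and D, with library D the lowest at a normalized count of 26.5 and library C the highest at 64.2. *Sfrp5* had 19, 39, 21 and 5 reads and *Dkk2* had 23, 16, 40 and 8. *Sfrp2* and *Sfrp4* had at most 7 reads in a library. *Notum*, *Sfrp5* and *Dkk2* were lowest in D, the library that was also lowest in the fibroblast, suprabasal, sebaceous, melanocyte and endothelial lists, and the part of such cells in these genes was not tested.

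*Wnt11* had the highest level per kilobase of the ligands. Of 15 ligands with reads, 7 had a mean over 50, and the levels of these 7 ran from 22.4 to 210 per kilobase. Among all 17044 genes with a mean above 0, 6702 had a mean of 50 or less. *Wnt11*, known mainly for signalling that does not pass through β-catenin, had 1420, 613, 550 and 476 reads in libraries A, B, C and D, or normalized counts of 1148, 520, 569 and 664. Library A was 2.21 times library B, and its interval of 1089 to 1210 lay above those of the other 3. Without library A the highest was 1.28 times the lowest, so the wide range rests on that library.

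*Wnt4* and *Wnt10a* followed, with levels of 150 and 134 per kilobase. *Wnt4* had normalized counts of 547, 694, 703 and 578 in A, B, C and D. *Wnt10a*, a canonical ligand known for its role in hair and tooth formation, had a small spread, with 332, 344, 332 and 314, and its 4 intervals overlapped. The ranges of *Wnt11* and *Wnt4* over libraries overlapped, as did those of *Wnt4* and *Wnt10a*, so these neighbours in the order are not separated.

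*Wnt7b* and *Wnt5b* came next. *Wnt7b* had normalized counts of 274, 389, 354 and 360, with library A the lowest, and *Wnt5b* had 141, 171, 126 and 141. The ranges of *Wnt10a*, *Wnt7b* and *Wnt5b* per kilobase did not overlap, at 127 to 140, 78.5 to 112 and 54.0 to 73.3. With this length these 3 are therefore ordered beyond the spread of the libraries. With coding length the mean levels of *Wnt10a* and *Wnt7b* were closer, at 264 and 243. Without length the order of this pair turned, with means of 331 and 344, and their normalized counts overlapped.

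*Wnt3* and *Wnt10b*, both canonical ligands, were low, and had the highest ratios between libraries of the 23 members with a mean over 50 and recovered reads. *Wnt3* had 45, 93, 113 and 31 reads in A, B, C and D, or normalized counts of 36.4, 78.9, 117 and 43.3. *Wnt10b* had 40, 88, 60 and 24 reads, or 32.3, 74.7, 62.1 and 33.5. For both genes libraries B and C were above A and D, by intervals that did not overlap for *Wnt3* and overlapped between C and D for *Wnt10b*. The highest library was 3.21 times the lowest for *Wnt3* and 2.31 times for *Wnt10b*. The myeloid list was also highest in B and C, at summed normalized counts of 941 and 660 against 314 in A and 355 in D. The suprabasal list was too, at 736 and 1337 against 538 and 267. Of its 2 genes with recovered reads, *Lor* was highest in C and B, while *Ivl* was at 116, 114, 154 and 79.6 in A, B, C and D. The fibroblast and melanocyte lists were instead highest in C and A. The endothelial list was highest in C, at 113, with A and B nearly equal at 92.2 and 91.6. The sebaceous list was highest in B and A, at 812 and 799 against 644 in C. The part of such cells in these ligands was not tested.

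The remaining ligands had means under 50. *Wnt6* had 41, 70, 49 and 20 reads in A, B, C and D, and *Wnt9a* had 48, 44, 22 and 30. *Wnt16*, *Wnt5a*, *Wnt7a* and *Wnt2b* had between 4 and 20 reads in each library. *Wnt3a* had 0, 7, 4 and 1 reads and *Wnt1* had a single read, in library A.

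**Figure D3:**
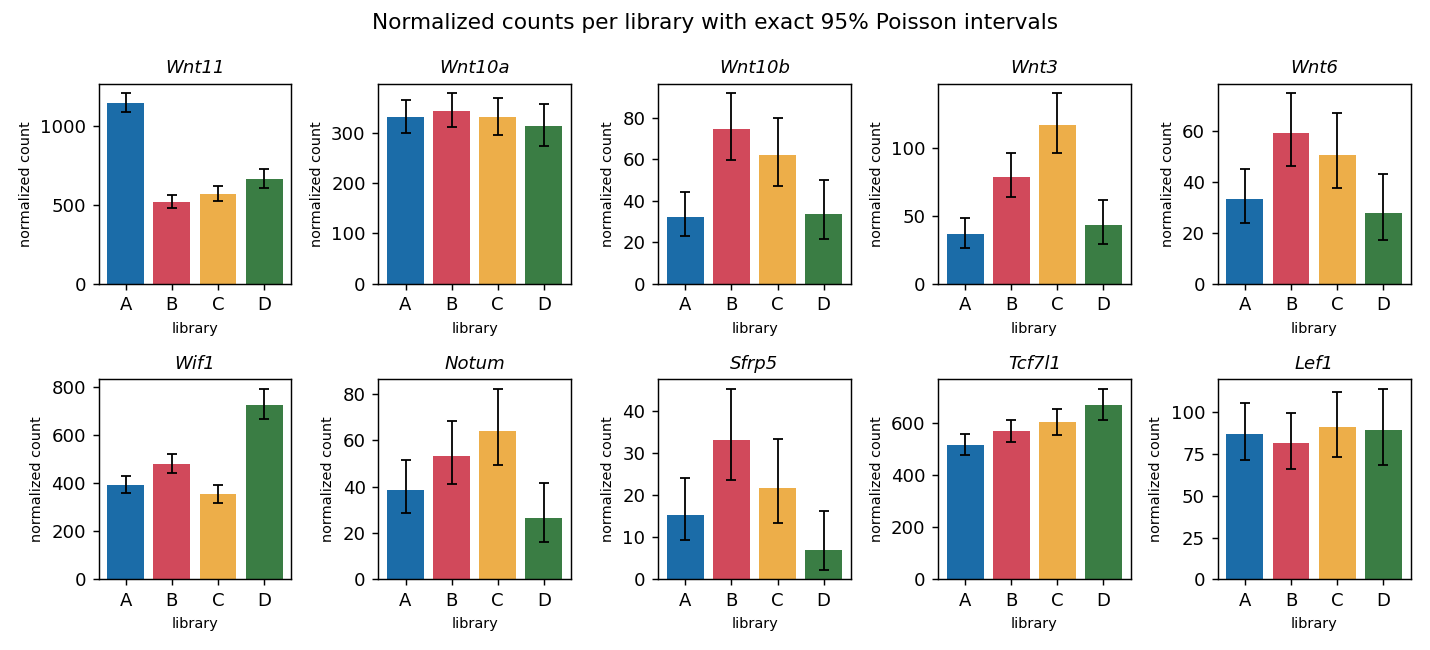
Normalized counts of 10 WNT genes in the 4 libraries, each panel on its own axis from 0, with bars for the libraries and error bars for the exact 95% Poisson interval. *Wnt11* stands high in library A and *Wif1* in library D, *Wnt3* and *Wnt10b* are higher in B and C than in A and D, and *Wnt10a* and *Lef1* are level.

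*Wls* and *Porcn* serve the release of ligands. *Wls*, the carrier that takes WNT proteins to the cell surface, had a mean of 1915 and the third highest level of the 47, at 580 per kilobase, although with coding length *Fzd7* stood above it. *Porcn*, the enzyme that adds the lipid, had 377, 464, 307 and 218 reads in A, B, C and D, or normalized counts of 305, 394, 318 and 304. Library B was the highest, 1.29 times the lowest. *Porcn* was at 175 per kilobase, below *Wnt11* and above the other ligands in mean level. With coding length *Wnt4*, *Wnt10a* and *Wnt7b* were also above it.

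Of 10 frizzled receptors, 7 had a mean over 50 and 5 a mean over 1000. Of all 17044 genes with a mean above 0, 6702 had a mean of 50 or less. *Fzd7* had the highest level, at 459 per kilobase with a mean of 2205, and *Fzd2* followed at 395 with a mean of 1433. *Fzd3* had normalized counts of 1419, 1151, 1290 and 1663 in A, B, C and D, and *Fzd1* had 1575, 1316, 1158 and 1481. In both, libraries A and D were the 2 highest, but the ranges of the genes per kilobase overlapped, at 277 to 400 and 265 to 360, and the order of the pair turned with coding length.

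*Fzd6*, known for planar polarity of hair follicles, had normalized counts of 905, 830, 905 and 866, the smallest spread of the 23 members with a mean over 50 and recovered reads, with the highest library 1.09 times the lowest. *Fzd5* had 1436, 1095, 1116 and 1233, with library A the highest. *Fzd8* had 182, 198, 209 and 151, and its intervals overlapped. *Fzd4*, at a mean of 49.9, had 52, 61, 43 and 44 reads. *Fzd9* had 55, 38, 15 and 22 reads and *Fzd10* had 4, 25, 17 and 13, where library A was lowest. For these last 2 the intervals of the highest and lowest library did not overlap.

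The co-receptors *Lrp5* and *Lrp6* had nearly the same mean, 1971 and 1972, at percentile 93.1 of all genes. Per kilobase the level of *Lrp5* was 381 and that of *Lrp6* 211, with longest transcripts of 5.17 kb and 9.37 kb, and with coding length both were at 407.

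Genes of the feedback group restrain the signal inside the cell or at the receptor, and *Axin2*, *Nkd1*, *Rnf43* and *Znrf3* are also known as targets of β-catenin. *Axin1*, the scaffold of the degradation complex, had the highest level of the group, at 310 per kilobase, with normalized counts of 1339, 1154, 1170 and 1027 in A, B, C and D. *Axin2* was at 48.3 per kilobase, with 188, 192, 229 and 215, and its intervals overlapped. *Rnf43* and *Znrf3*, ubiquitin ligases that remove frizzled receptors from the surface, had 405, 450, 383 and 491, and 379, 483, 405 and 416. *Nkd1* had 270, 210, 256 and 239. Each of the 5 had its highest library at least 1.21 and at most 1.3 times its lowest. *Nkd2*, at a mean of 16.1, had 25, 8, 24 and 9 reads.

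All 4 TCF/LEF factors had a mean over 50. *Tcf7l1*, known as a repressor of WNT targets in bulge stem cells, had the highest level, at 194 per kilobase, with normalized counts of 518, 569, 604 and 670 in A, B, C and D. *Tcf7l2* was at 145 per kilobase, with 623, 649, 558 and 666. *Tcf7* was at 107, with 260, 323, 258 and 250. *Lef1*, known as a marker of the hair germ and of follicles with active WNT signalling, was at 25.1 per kilobase, with 108, 96, 88 and 64 reads and even normalized counts of 87.3, 81.4, 91.1 and 89.3. The ranges of these 4 genes per kilobase did not overlap, so *Tcf7l1* stood above *Tcf7l2*, *Tcf7* and *Lef1* in this order beyond the spread of the libraries. With coding length in place of transcript length the order of *Tcf7l1* and *Tcf7l2* turned.

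**Figure D4:**
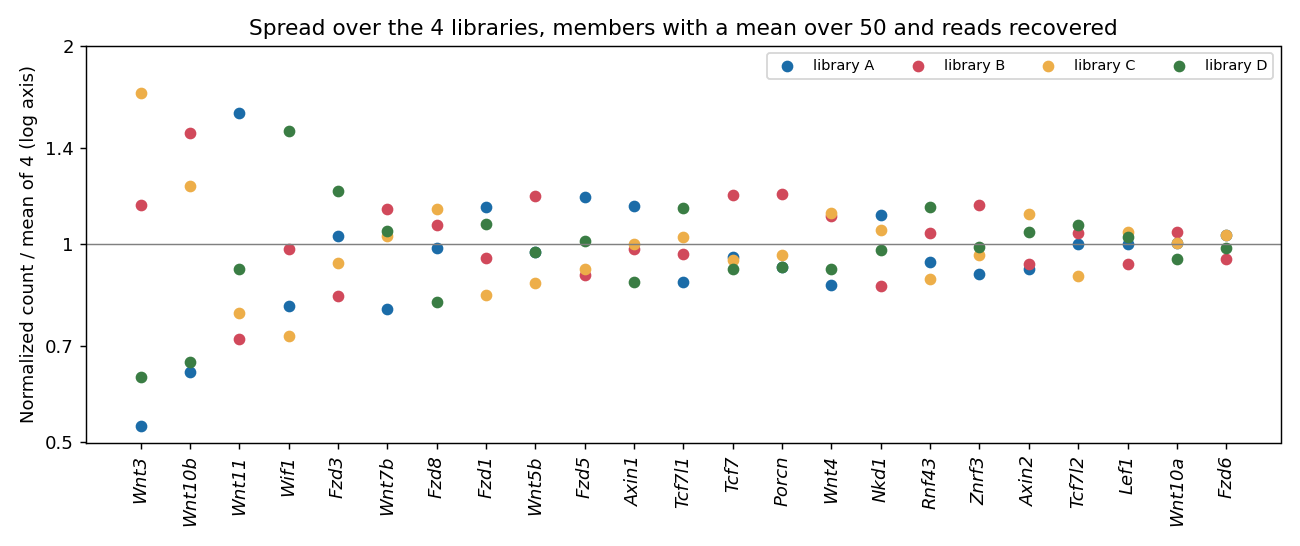
Normalized count of each library divided by the mean of 4, on a log axis, for the 23 WNT genes with a mean over 50 and recovered reads, ordered by spread. *Wnt3*, *Wnt10b*, *Wnt11* and *Wif1* spread at least 2-fold, while the other 19 spread at most 1.44-fold.

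Of the 23 genes with a mean over 50 and recovered reads, 17 had exact 95% intervals of the highest and the lowest library that did not overlap, so that their spread exceeded counting error. Among the 19 with a mean up to 1000 the number was 13, where 54.7% of all 7888 genes in this range did the same. A spread of at least 2-fold was found for *Wnt3*, *Wnt10b*, *Wnt11* and *Wif1*, 4 of these 19, where 7.4% of all genes in the range spread as much. No other of the 19 reached 1.5-fold, where 25.7% of all genes did. Libraries B and C were the 2 highest in 6 of the 19, against 25.4% of all genes in the range, and A and D in 1, *Wnt11*, against 19.7%. The median ratio of highest to lowest library was 1.29 for the 19 and 1.31 for all genes. Among the 17 members with a mean up to 50, 7 had intervals that did not overlap, against 17.4% of all genes with such a mean. That share takes in genes down to single reads and was not matched to the means of the members. A spread of at least 2-fold was found for 13 of the 17, but no share over all genes was computed at such means, where counting error is wide. *Fzd10* reached 6.56-fold, *Sfrp5* 4.74-fold, *Dkk2* 3.71-fold and *Nkd2* 3.66-fold, all with separate intervals. These comparisons are between libraries and not between conditions.

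**Figure D5:**
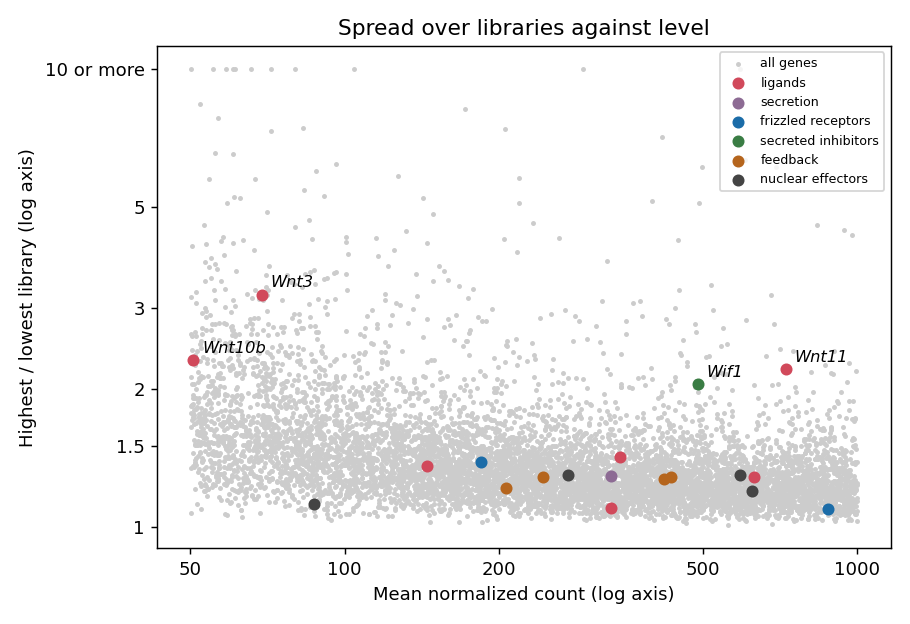
Ratio of the highest to the lowest library against the mean normalized count, both on log axes, for genes with a mean over 50 and up to 1000. Grey dots are all genes, with ratios above 10 drawn at 10, coloured dots the 19 WNT genes by role, and *Wnt3*, *Wnt10b*, *Wnt11* and *Wif1* lie above 2.

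Other genes of the pathway, from a list of 39, were all above 0, and 30 had a mean over 50. Among all 17044 genes with a mean above 0, 6702 had a mean of 50 or less. *Ctnnb1*, which encodes β-catenin, had a mean of 12071 and a level of 3332 per kilobase, above every one of the 47. With coding length it was at 5145, below *Dkk3* at 5952. Per kilobase of the longest transcript, the kinase genes *Csnk1a1* and *Gsk3a*, whose products phosphorylate β-catenin or its partners, were at 1112 and 1087. The R-spondin receptor *Lgr5*, a stem cell marker, was at 940 and the receptor *Ryk* at 657. The R-spondin ligands were nearly absent, with means between 0.202 and 8.31. *Rspo3* had 1, 1, 16 and 0 reads in A, B, C and D.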

How the data were processed

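Per the labels and the study's methods, paired-end reads of RNA from sorted HF-SCs were aligned by the authors with HISAT2 (version 2.1.0), handled with SAMtools (version 1.3.1), summarised per gene with HTSeq and compared with DESeq2. The processing notes name mm10, and the methods write NCBI37/mm10. The annotation, the strand setting and the DESeq2 version were not given in the sources used. The deposited table holds, per gene, a mean normalized count (unit signal; the authors pooled 4 libraries in it), and their log2 fold change, its error, a statistic and p-values for induced against control. Only names and the mean were used, since the other columns are the authors' own comparison. The number of columns of values per sample was 0, so the planned comparison of control with induced samples could not be run.

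Whole reads were sought that give the mean within 0.6 units of its last digit, up to a mean of 2000, and the step was tested on simulated data. This tolerance was set after a first try with 1 unit. Size factors recomputed as median ratios over 12254 recovered genes were 1.22, 1.20, 0.979 and 0.709.

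Levels were divided by the longest GENCODE vM1 transcript. Intervals are exact 95% Poisson intervals. Alternatives changed the minimum mean, the length, the tolerance, the interval, the scaling and the letters searched, and left out each library. Values in all libraries were to be given for members with a mean over 50 that are ligands, the 4 highest frizzled receptors, the highest inhibitors, secretion, feedback and TCF/LEF genes, and others by range. At most 5 members with the largest spread were named. Members and lists were chosen with earlier results of these data known. Promoters, miRNA sequences and gene places are from RefSeq on GRCm38.p6, and 31 of 47 members had a promoter there. The software was Python 3.11.15 with scipy 1.17.1, numba 0.67.0, numpy 2.4.6, matplotlib 3.10.9 and pandas 2.3.3.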

Additional observations from a re-analysis of the deposited data

How the results depend on the processing

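No paired analysis was possible because the recovered reads carry no sample label, and for the same reason the fits of control against induced samples and without each labelled replicate were not run. Of the 47 members, 30 had a mean over 50, 25 a mean over 200 and 29 at least 10 recovered reads in every library. A mean of 50 or less was found for 6702 of all 17044 genes with a mean above 0. Reads were recovered for 40 members, for 36 with a tolerance 10 times wider, for 36 with the tolerance of 1 unit tried first, added after seeing the data, and for 5 with one 10 times narrower, which is less than the rounding of the last digit. The median percentile of the 47 members among all genes was 62.0. For the 30 members with a mean over 50 it was 63.4 among genes with such a mean. Of the 10 highest levels, between 7 and 8 were shared with other lengths or none. Leaving out a library was possible only among the 40 members with recovered reads, which exclude *Dkk3*, *Sfrp1*, *Wls*, *Fzd7*, *Fzd2* and *Lrp5*. Of the 10 highest of these 40, between 9 and 10 were shared. The 17 members whose highest and lowest libraries had separate intervals became 12 with 99% intervals, 16 with library totals, and 4 with a spread of at least 1.5-fold or 2-fold in their place. Leaving out each library gave 11 to 15, and the lowest number was without library A. The share of inhibitors was 37.8% per kilobase and 34.3% without length. The share of ligands among members with recovered reads was 22.1% and ran from 21.8% to 22.9% with a library left out. The 7 seed letters were found in 4 members, a lower share than over all genes, while the 6 letters TGAAGG were found in 23, or 48.9% against 34.1% of genes, so the direction turned. CTTTG was found in 14 members, or 45.2% against 52.5% of genes, and CTTTGA in 4. Depth limits the 17 members with a mean of 50 or less.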

Other observations

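Across the 15 ligands, libraries B and C held the 2 highest normalized counts in 8. Beside *Wnt3* and *Wnt10b* these were *Wnt4*, *Wnt10a*, *Wnt6*, *Wnt7a*, *Wnt5a* and *Wnt3a*. *Wnt6* had normalized counts of 33.2, 59.4, 50.7 and 27.9 in A, B, C and D, *Wnt7a* had 4.85, 11.9, 9.31 and 5.58, and *Wnt5a* had 6.47, 16.1, 16.6 and 5.58. In *Wnt10a*, *Wnt7a*, *Wnt5a* and *Wnt3a* the intervals of the highest and the lowest library overlapped, so their order was not separated from counting error. Among the 7 ligands with a mean over 50 the number was 4, where B and C were the 2 highest in 25.4% of all genes with a mean over 50 and up to 1000. No such share was computed for lower means, and the pattern was noticed after the values were seen. The myeloid and suprabasal lists were also highest in B and C, with summed normalized counts of 941 and 660 against 314 in A and 355 in D for the myeloid list, and 736 and 1337 against 538 and 267 for the suprabasal list. Within the suprabasal list this held for *Lor* and not for *Ivl*. The fibroblast, melanocyte, endothelial and sebaceous lists had A among their 2 highest libraries, though in the endothelial list A and B were nearly equal, at 92.2 and 91.6. The part of such cells in this order was not tested. The libraries carry no label, so this order says nothing about control or induced samples.

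Outside the 47 genes, the reads of *Kremen2*, a receptor for Dickkopf proteins, were 28, 24, 50 and 26 in A, B, C and D, with C the highest. The planar polarity gene *Prickle1* had 23, 46, 29 and 21 reads, with B the highest. *Fgf18*, a factor known to keep bulge stem cells at rest, had normalized counts of 198, 103, 124 and 109, with library A the highest, as for *Wnt11*.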
